A study of Arabidopsis thaliana with 16 samples.

Results

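Seedlings overexpressing the rice glutaredoxin gene OsGRX8 were set against wild type seedlings in every condition of the study. All 16 arrays of the series entered the comparison, 8 of the OsGRX8 line and 8 of the wild type, with the condition kept as a factor. The members sought were nuclear genes that differed between the lines in 1 direction in all 4 conditions. Of 22746 probe sets tested, 13347 belonged to 1 nuclear gene each, and 0 of these passed the test. A description by array values alone gave 31 nuclear genes, those whose OsGRX8 line arrays all lay above, or all below, the wild type arrays within each condition.

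Both lines were Arabidopsis thaliana of the Columbia ecotype, sampled as whole seedlings 14 days old and raised in 16 h light and 8 h dark. The groups were the OsGRX8 line in water, in 100 µM IAA (the auxin indole-3-acetic acid), in 200 mM NaCl and in 25 µM methyl viologen (MV, a herbicide that produces superoxide in chloroplasts), and the wild type in the same 4 solutions. Each incubation lasted 3 h, and each group held 2 arrays, which the design text calls biological replicates. Neither the promoter that drives OsGRX8 nor the number of independent transgenic lines is stated in the labels, and the level of the rice transcript was not analysed here. The labels name only overexpression seedlings, so a difference that belongs to a transformed line and a difference made by the glutaredoxin cannot be told apart.

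Glutaredoxins are small oxidoreductases that use glutathione to reduce disulfide bonds or to remove glutathione from protein thiols. The CC-type class, to which OsGRX8 belongs, is specific to land plants, and its Arabidopsis members ROXY1, ROXY2 and GRX480 bind TGA transcription factors. ROXY1 and ROXY2 act in petal and anther development, and GRX480 links salicylate signalling to the repression of jasmonate genes.

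Values are log2 expression values of single probe sets. Levels are compared between lines and not between genes. Replicate arrays correlated at 0.966 to 0.994, with the wild type IAA pair the least alike (replicate SD 0.418 on the log2 scale). On replicate 2 of the IAA groups actin signal was weak at the 5′ end, with a 3′ minus 5′ difference of 4.43 in the OsGRX8 line and 6.1 in the wild type, against 1.13 to 2.57 on the other arrays. The light-harvesting gene LHCB4.1 averaged 10.5 in the OsGRX8 line and 10.3 in the wild type. Probe sets of the anther gene AMS and the seed oil body gene OLEO3 stayed near the level of an absent bacterial control (0.82 to 0.99), at 1.12 and 1.32 in the OsGRX8 line and 1.04 and 1.27 in the wild type. The labels name no batch.

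The line difference was small beside the effect of the treatments. Over nuclear probe sets, condition held 67.8% of the variance, replicates 22.3%, line by condition 6.95% and line 2.88%. The mean square of the line term was 0.0642, against 0.0623 between replicates. Averaged over the 4 conditions, the difference between the OsGRX8 line and the wild type had a median absolute size of 0.07 on the log2 scale. It exceeded 0.5 in 46 nuclear probe sets, which is 0.345% of them, and exceeded 1 in 0.

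No probe set passed limma's test of the mean of the 4 within-condition differences. The count was 0 of 22746 (percent called 0) at a Benjamini-Hochberg adjusted p of 0.05, and the smallest adjusted p was 0.57. At an unadjusted p under 0.05 there were 1331 probe sets (5.85%), of which 784 were higher (3.45%) and 547 lower (2.4%) in the OsGRX8 line. Among nuclear probe sets there were 686 (5.14%), 399 higher (2.99%) and 287 lower (2.15%). Every other setting of normalization, filtering and modelling that kept all arrays also gave 0. Without replicate 1 of the wild type in IAA, that group held only replicate 2, the array with weak 5′ actin signal. This setting singled out a probe set shared by several genes, with a difference of 0.60, and its tests are not read.

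**Figure D1:**
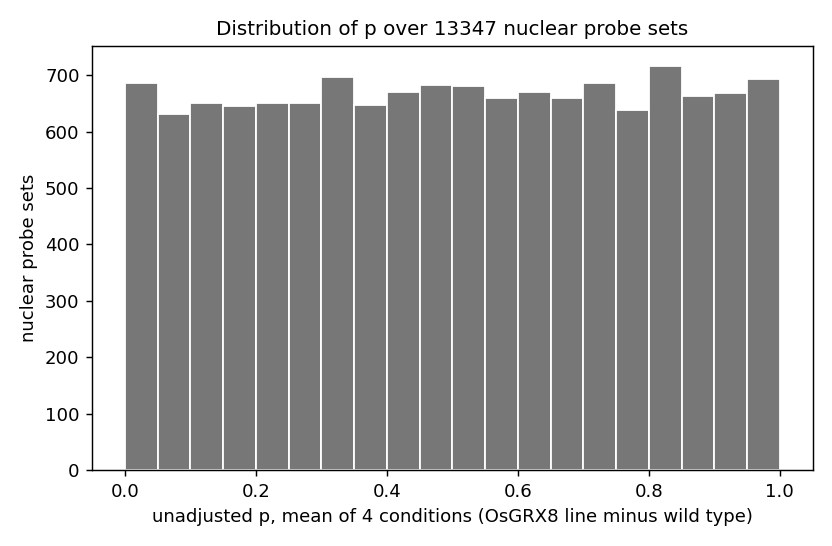
Number of nuclear probe sets (vertical axis) in each interval of 0.05 of the unadjusted p from limma's test of the OsGRX8 line minus the wild type over 4 conditions (horizontal axis). The lowest interval holds 686 probe sets, against 632 to 716 in the others.

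A p that misses the threshold does not show that the lines were alike, and the intervals give the sizes that the arrays leave room for. The 95% confidence interval of the mean difference had a median half-width of 0.22. It lay within 1 in either direction for 13292 nuclear probe sets (99.6%), and within 0.5 for 11980 (89.8%).

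The difference between the lines was also tested for variation with the condition. The interaction F test called 0 of 22746 probe sets, with a smallest adjusted p of 1 after rounding. At an unadjusted p under 0.05 there were 799 probe sets (3.51%). Across nuclear probe sets, the line differences of pairs of conditions, which share no array, correlated between -0.122 (NaCl and MV) and 0.148 (water and MV). Probe sets are not independent replicates, so these correlations only describe the arrays. Without replicate 1 of the wild type in IAA, that group rests on replicate 2 alone, the array with weak 5′ actin signal. The interaction test is not read in that setting.

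The 4 within-condition differences had 1 sign in 1825 nuclear probe sets (13.7%), with 1050 higher (7.87%) and 775 lower (5.81%) in the OsGRX8 line. In 31 of them (0.232%) the arrays of the lines did not overlap in any condition. Of these, 21 were higher (0.157%) and 10 lower (0.0749%) in the OsGRX8 line. All 22746 probe sets gave 54 (0.237%), a share close to that of the nuclear ones. The 31 genes were taken from the contrast itself, so their differences are a description and carry no test. Because the rule favours large differences and a small spread, the differences printed for them may be too large and their SE too small. Several lie at the edge of the rule. AT2G34050 cleared it by 0.0005 in MV and AT4G14100 by 0.0018 in IAA, while AT5G48770 and AT2G37650 missed it by 0.0055.

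The choice of scaling moved the membership. After a repeated quantile normalization 19 of the 31 genes still showed no overlap, and after median centring 10 did. The array medians of the OsGRX8 line exceeded those of the wild type by 0.147 in MV. Under both scalings 8 genes kept the pattern, and their array values follow. These are OSM34, FMO, AT1G49570, AT5G45410 and AT5G19850, higher in the OsGRX8 line, and AT3G10930, CaS and AT1G80020, lower in it. Roles given for genes with a locus code only are general knowledge of the Arabidopsis genome and not from the annotation used here.

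OSM34 encodes an osmotin-like protein of the thaumatin family, known as a stress and defence protein. In water it had 7.29 and 7.84 in the OsGRX8 line, against 6.98 and 6.88 in the wild type. In IAA it had 6.78 and 6.63 in the OsGRX8 line, against 6.61 and 5.93 in the wild type. In IAA the lines nearly met, and the wild type pair was the wider. In NaCl it had 7.04 and 7.54 in the OsGRX8 line, against 5.88 and 6.93 in the wild type. In MV it had 7.26 and 6.83 in the OsGRX8 line, against 6.02 and 5.75 in the wild type. The gap between the lines was clearest in MV. The mean difference was 0.78 ± 0.17 (SE, 8 arrays a line), or 1.72-fold.

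AT1G49570 and AT1G71695 encode class III peroxidases, secreted enzymes that use hydrogen peroxide on cell wall phenolics. AT1G49570 had 3.83 and 4.08 in the OsGRX8 line in water, against 3.82 and 2.73 in the wild type. The IAA arrays had 2.81 and 2.83 in the OsGRX8 line, against 2.75 and 2.27 in the wild type. One wild type array in each of these conditions lay just under the OsGRX8 line. The NaCl arrays had 1.47 and 1.65 in the OsGRX8 line, against 1.23 and 1.30 in the wild type. The MV arrays had 4.57 and 3.74 in the OsGRX8 line, against 3.25 and 3.14 in the wild type. Its mean difference was 0.56 ± 0.16. That of AT1G71695, which kept the pattern after quantile normalization and lost it after median centring, was 0.38 ± 0.10.

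FMO (AT1G12200) encodes a flavin monooxygenase, an enzyme class that oxygenates nitrogen or sulfur groups. The water arrays had 4.63 and 4.91 in the OsGRX8 line, against 4.13 and 4.32 in the wild type. Values in IAA were 4.52 and 4.44 in the OsGRX8 line, against 4.31 and 4.13 in the wild type. The gap between the lines was wider in water than in IAA. Values in NaCl were 3.08 and 3.25 in the OsGRX8 line, against 2.79 and 2.76 in the wild type. Values in MV were 5.26 and 4.56 in the OsGRX8 line, against 3.81 and 4.23 in the wild type. The mean difference was 0.52 ± 0.11.

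AT5G19850 encodes an alpha/beta hydrolase, and its line difference lay between 0.31 in IAA and 0.48 in MV. Values in water were 5.32 and 5.21 in the OsGRX8 line, against 4.94 and 4.83 in the wild type. With IAA it had 5.27 and 5.32 in the OsGRX8 line, against 5.10 and 4.85 in the wild type. All 8 arrays of the OsGRX8 line lay above all 8 of the wild type. With NaCl it had 5.23 and 5.19 in the OsGRX8 line, against 4.85 and 4.89 in the wild type. With MV it had 5.44 and 5.62 in the OsGRX8 line, against 4.99 and 5.12 in the wild type. The mean difference was 0.38 ± 0.07, or 1.30-fold.

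AT5G45410 had a mean difference of 0.58 ± 0.15. With water alone it had 5.83 and 5.81 in the OsGRX8 line, against 5.72 and 5.41 in the wild type. In IAA it had 6.20 and 5.31 in the OsGRX8 line, against 5.21 and 4.75 in the wild type. Replicate 1 of the OsGRX8 line in IAA stood well above the other 3 IAA arrays. In NaCl it had 5.23 and 5.20 in the OsGRX8 line, against 4.38 and 4.93 in the wild type. In MV it had 6.57 and 6.13 in the OsGRX8 line, against 5.41 and 5.80 in the wild type.

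AT3G10930 had the largest negative mean difference of the 31 genes, -0.65 ± 0.18. In water it had 3.94 and 3.68 in the OsGRX8 line, against 4.21 and 4.30 in the wild type. The IAA arrays had 4.17 and 3.95 in the OsGRX8 line, against 4.41 and 5.83 in the wild type. The difference in IAA, -1.06, rested largely on replicate 2 of the wild type, an array with weak 5′ signal. The NaCl arrays had 2.36 and 2.31 in the OsGRX8 line, against 2.90 and 2.67 in the wild type. The MV arrays had 5.22 and 6.01 in the OsGRX8 line, against 6.42 and 6.05 in the wild type. Over the 3 conditions other than IAA the mean difference was -0.51.

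CaS encodes the calcium sensing receptor of the thylakoid membrane, which acts in stomatal closure and photoacclimation. The water arrays had 6.77 and 6.68 in the OsGRX8 line, against 6.86 and 7.10 in the wild type. Values in IAA were 6.92 and 6.64 in the OsGRX8 line, against 7.10 and 7.17 in the wild type. In each condition the lines were separated by a narrow margin. Values in NaCl were 8.48 and 8.50 in the OsGRX8 line, against 8.59 and 8.67 in the wild type. Values in MV were 6.80 and 7.12 in the OsGRX8 line, against 7.14 and 7.51 in the wild type. The mean difference was -0.28 ± 0.09.

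AT1G80020, annotated as a pseudogene, ranged from 3.45 to 3.89 in the OsGRX8 line and from 3.65 to 4.07 in the wild type. Its mean difference was -0.24 ± 0.08.

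**Figure D2:**
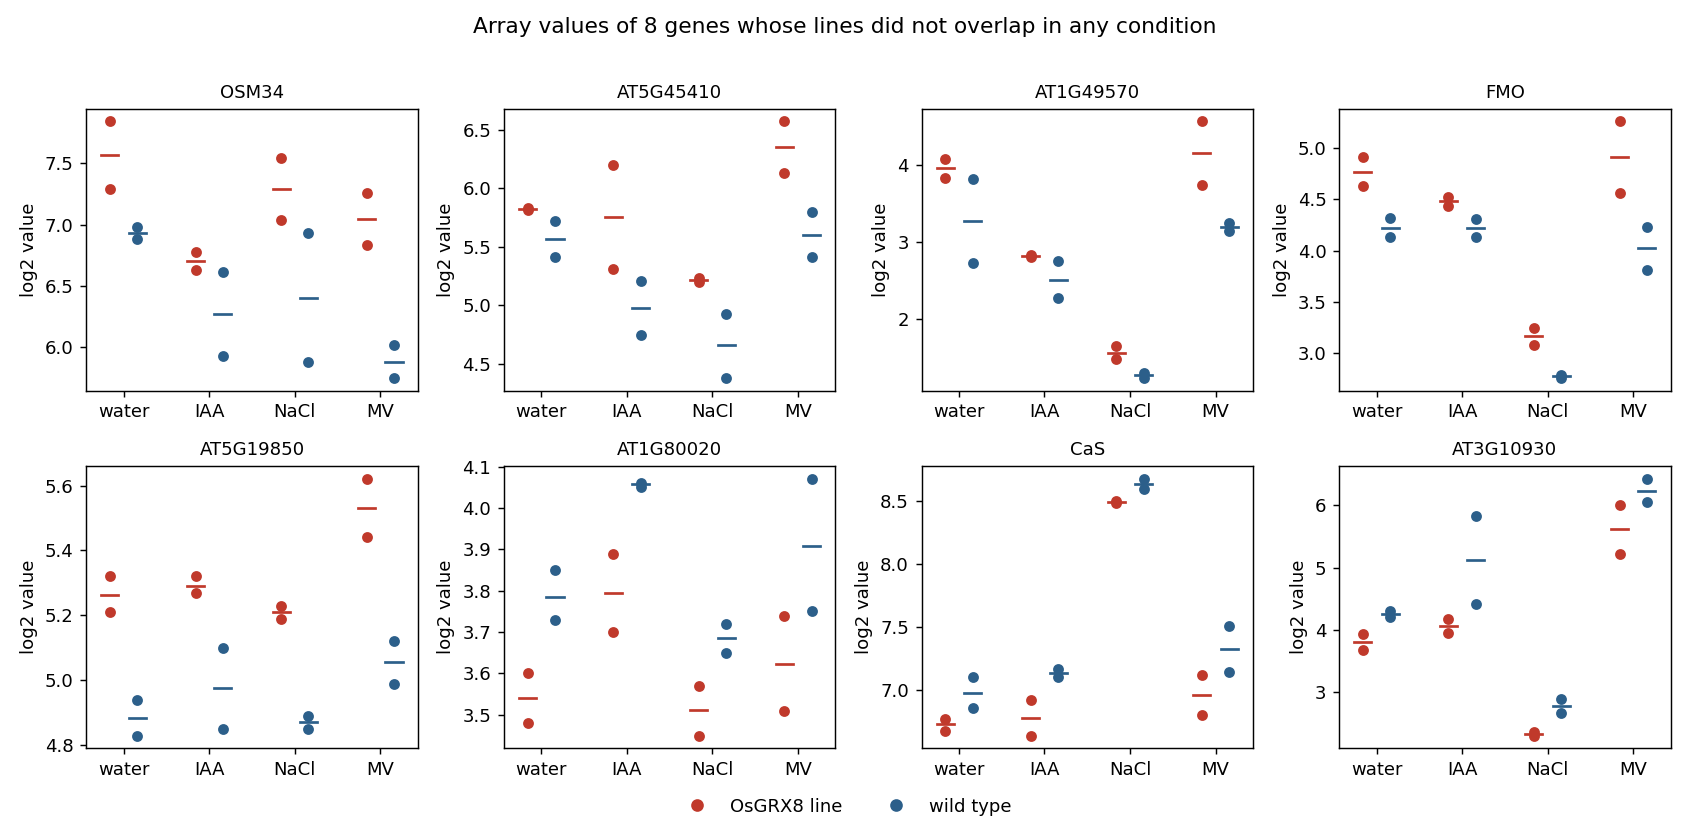
Log2 values of each array (points, 2 per group) and group means (bars) for the 8 genes that showed no overlap under all 3 scalings, in 4 conditions, with the OsGRX8 line to the left of the wild type. Vertical axes differ between genes and do not start at 0. In AT5G19850 all OsGRX8 line arrays lie above all wild type arrays, while in OSM34 and AT3G10930 the levels of the lines overlap across conditions.

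The other higher genes had mean differences between 0.19 (AT2G34050) and 0.51 (AT1G11850). AT2G20560, which encodes a DnaJ-domain chaperone, averaged 3.64 in the OsGRX8 line and 3.17 in the wild type. AT3G57020, of the strictosidine synthase-like family, averaged 7.88 in the OsGRX8 line and 7.47 in the wild type. AT1G77840, which encodes the translation initiation factor eIF5, averaged 5.61 in the OsGRX8 line and 5.33 in the wild type. AT3G59950, which encodes an ATG4 protease of autophagy, differed by 0.21, and AT5G12040, which encodes an omega-amidase, by 0.24. AT4G25030, AT1G07040, AT4G14100, AT3G22850 and AT2G04690, for which no role is given here, differed by 0.34, 0.33, 0.31, 0.31 and 0.26. AT3G05100 differed by 0.93 in IAA and by 0.04 in NaCl, the widest span among the higher genes. The IAA difference rested largely on replicate 2 of the wild type (3.19, against 4.56 in replicate 1), the array with weak 5′ actin signal. Over the conditions other than IAA its mean difference was 0.27, and it lost the pattern under both scalings.

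The other lower genes had mean differences between -0.40 and -0.20. HVA22C, a homologue of a barley gene induced by abscisic acid, averaged 4.32 in the OsGRX8 line and 4.72 in the wild type. Its difference was -0.82 in IAA, where the wild type arrays had 4.66 and 5.50, and -0.10 in NaCl. AT1G53440, which encodes a leucine-rich repeat receptor kinase, averaged 4.99 in the OsGRX8 line and 5.35 in the wild type. AT3G49400, AT4G05070 and AT2G33010 differed by -0.34, -0.27 and -0.26. The pseudogenes AT3G30150 and AT5G28860, and the higher genes AT5G64190 and AT3G10680, had means of 0.96 to 1.34 over the 16 arrays. That is close to the absent bacterial control. AT5G64190 stood above it in NaCl, with 2.44 and 2.31 in the OsGRX8 line, against 1.33 and 1.98 in the wild type. Its group means in the other conditions were 0.77 to 1.11.

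**Figure D3:**
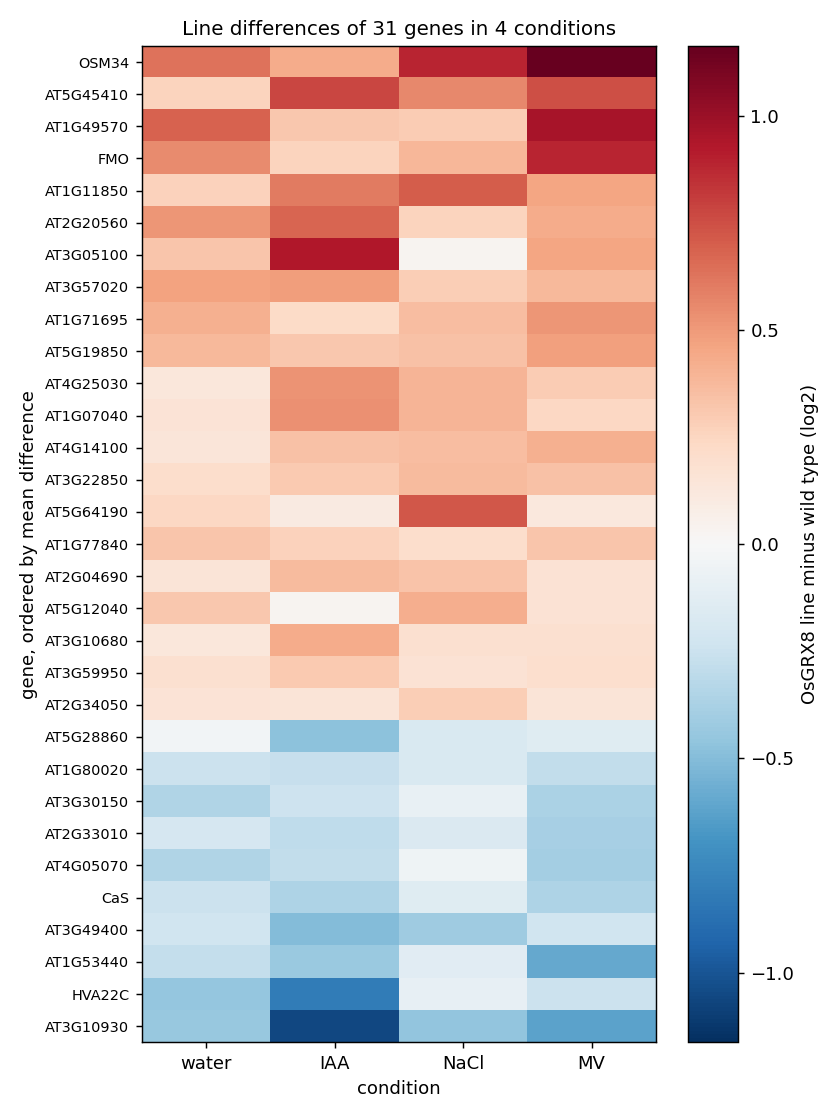
Difference between the OsGRX8 line and the wild type on the log2 scale (colour, red where the OsGRX8 line is higher) for 31 nuclear genes (rows, by mean difference) in 4 conditions (columns). The 21 upper rows are positive and the 10 lower rows negative throughout because the genes were chosen so, and the sizes differ between conditions, up to 1.16 for OSM34 in MV.

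The 31 genes lay on all 5 chromosomes. Chromosome 1 held 9 (29%, against 26% of nuclear probe sets) and chromosome 2 held 4 (12.9%, against 16%). Chromosome 3 held 8 (25.8%, against 20.6%), chromosome 4 held 4 (12.9%, against 14.7%) and chromosome 5 held 6 (19.4%, against 22.6%). None of their 62 nearest measured neighbours was itself a member, and 34 of the 62 differed in the direction of the member beside them. Members were only 0.232% of nuclear probe sets, so their absence among the neighbours is not read as a result. Of all 13347 nuclear probe sets, 6844 were higher and 6503 lower in the OsGRX8 line. Neighbour differences ran from -0.26 to 0.35.

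The response of the members to the treatments does not enter the rule and was tested over both lines against water, a test added after the data were seen. The rule favours probe sets with a small spread, which pass a test more readily. Shares of all nuclear probe sets are given beside the counts. Those probe sets were not chosen for a small spread, so a larger share among members is not read as a result. In NaCl 5 members rose and 10 fell, which is 16.1% and 32.3% of the 31, against 11.7% and 11.1% of nuclear probe sets. In MV 4 rose and 3 fell, 12.9% and 9.68% of the members, against 3.41% and 2.74%. In IAA 0 of 31 passed limma's test, against 0.382% of nuclear probe sets. At an unadjusted p under 0.05 there were 9 in IAA (29% of the members, against 11.2% of nuclear probe sets). Leaving out replicate 1 of the wild type in IAA leaves only replicate 2 there, the array with weak 5′ actin signal. The IAA counts of that setting are not read here. Leaving out single arrays gave 11 to 16 members in NaCl and 4 to 8 in MV. The MV count fell to 4 without any 1 of the 4 water arrays or without replicate 2 of the OsGRX8 line in MV.

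Among the genes that responded to NaCl, CaS rose by 1.70 ± 0.12 on the log2 scale (limma adjusted p = 7.24e-07) and AT4G05070 by 1.58 ± 0.11 (adjusted p = 3.92e-07). The peroxidase gene AT1G49570 fell by 2.20 ± 0.23 (adjusted p = 1.33e-05) and FMO fell by 1.53 ± 0.16 (adjusted p = 1.2e-05). These genes span both directions of the line difference. Since the rule favours a small spread, the adjusted p in this paragraph may be too small. In MV the chaperone gene AT2G20560 rose by 1.90 ± 0.16 (adjusted p = 1.65e-05), and AT3G10930 rose by 1.89 ± 0.26 (adjusted p = 0.00056). Both fell in NaCl, by 0.85 ± 0.16 (adjusted p = 0.00178) and by 1.47 ± 0.26 (adjusted p = 0.000845). For OSM34, the treatments gave -0.76 ± 0.24 in IAA, -0.40 ± 0.24 in NaCl and -0.78 ± 0.24 in MV, with adjusted p of 0.217, 0.269 and 0.0661.

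**Figure D4:**
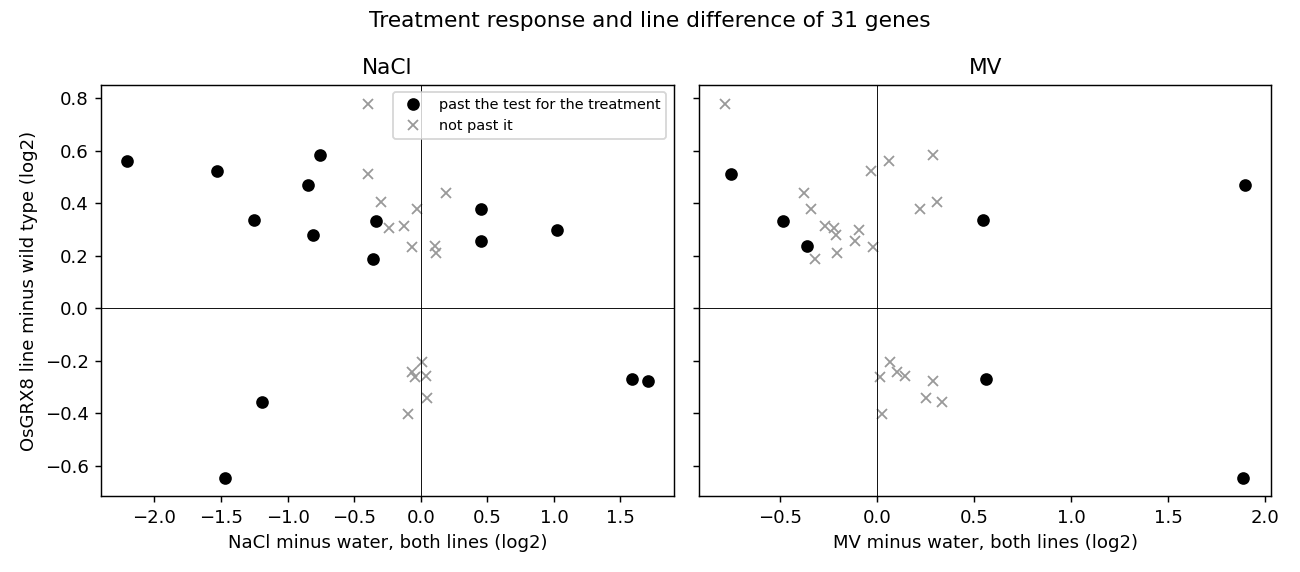
Mean difference between the OsGRX8 line and the wild type (vertical axis, log2) against the response to NaCl or MV over both lines (horizontal axis, log2, minus water) for the 31 genes. Filled points passed limma's test for the treatment and crosses did not: 15 points pass in NaCl and 7 in MV, on both sides of 0 on each axis.

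No list of genes held a member past the test of the line difference. All 13192 nuclear genes had a median difference of 0.003, with 6756 higher and 6436 lower in the OsGRX8 line. They ran from -0.82 to 0.94, and 677 of them were at an unadjusted p under 0.05. The splits of single lists into higher and lower genes were not tested. Lists hold only probe sets that the annotation ties to 1 nuclear gene, so other genes of a family on the array may be missing. Among the 8 glutaredoxins found in this way, 3 were higher and 5 lower in the OsGRX8 line, with a median of -0.01. GRXC1, a glutaredoxin of the CPYC type, averaged 5.73 in the OsGRX8 line and 5.48 in the wild type, a difference of 0.24 ± 0.09 (limma adjusted p = 0.791). Of these 8 glutaredoxins, GRXC1 was the only 1 whose differences had 1 sign in every condition. GRX480 averaged 5.89 in the OsGRX8 line and 5.96 in the wild type, -0.07 ± 0.19 (limma adjusted p = 0.992), with the sign turning when single arrays were left out.

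The 10 thioredoxin, peroxiredoxin and glutathione genes had a median of 0.05, with 6 higher and 4 lower in the OsGRX8 line. The antioxidant list had 3 measured genes and a median of 0.23. SAPX and CCS, a copper chaperone of superoxide dismutase, were on the higher side, and the thylakoid ascorbate peroxidase TAPX was at 0.01, or -0.01 after quantile normalization. SAPX, the stromal ascorbate peroxidase, averaged 6.01 in the OsGRX8 line and 5.63 in the wild type, a difference of 0.38 ± 0.16 (limma adjusted p = 0.831). The 7 class III peroxidases matched by symbol or locus had a median of 0.19, with 6 higher and 1 lower, and 0 at an unadjusted p under 0.05. Prx37, for example, averaged 4.75 in the OsGRX8 line and 4.36 in the wild type (limma adjusted p = 0.906). The members AT1G49570 and AT1G71695, and the peroxidase gene AT5G17820, are not in that list. The list is therefore incomplete. These genes were singled out by their differences on the same arrays, so their p is not set beside that of the list.

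Detoxification genes (14) had a median of 0.10 and the widest single difference of any list. GSTF4, a phi-class glutathione transferase, averaged 2.95 in the OsGRX8 line and 2.30 in the wild type, a difference of 0.65 ± 0.22 (limma adjusted p = 0.72). With IAA it had 2.88 and 2.98 in the OsGRX8 line, against 1.59 and 3.01 in the wild type, so the arrays overlapped. The 67 cytochrome P450 and UDP-glycosyltransferase genes had a median of 0.06, with 46 higher and 21 lower. Of the 67, 7 were at an unadjusted p under 0.05, against 677 of all 13192 nuclear genes.

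Jasmonate and ethylene defence genes (6) had a median of -0.13, with 1 higher and 5 lower in the OsGRX8 line. ORA47, an ERF transcription factor of jasmonate signalling, averaged 4.10 in the OsGRX8 line and 4.41 in the wild type, a difference of -0.31 ± 0.13 (limma adjusted p = 0.815). It came from water (-0.54) and MV (-0.75), with 0.01 in IAA and 0.04 in NaCl. Auxin primary response genes (12) had a median of -0.05, with 4 higher and 8 lower. IAA34, an Aux/IAA repressor gene, differed by 0.28 ± 0.12 (limma adjusted p = 0.835), with 0.25 to 0.31 in each condition. Its signal was dim, and its wild type arrays in NaCl (0.99 and 0.96) were at the level of the absent bacterial control (0.82 to 0.99).

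Cell wall expansion genes (32) had a median of 0.06, with 24 higher and 8 lower. Of the 32, 1 was at an unadjusted p under 0.05, against 677 of all 13192 nuclear genes. EXPA7, a root hair expansin and also a marker of root, averaged 1.95 in the OsGRX8 line and 1.56 in the wild type, a difference of 0.39 ± 0.09 (limma adjusted p = 0.57). The other measured root marker, PYK10, averaged 9.31 in the OsGRX8 line and 9.22 in the wild type. PYK10 turned sign, to -0.005, when replicate 2 of the wild type in MV was left out. The part of the root share in any line difference was not tested. In whole seedlings, more cells of a type and more RNA per cell cannot be told apart. Lists of abscisic acid, cold and drought genes (10) and of sulfur and glucosinolate genes (5) had medians of 0.04 and 0.17. TGA factors, ribosomal proteins, WRKY factors and leaf markers were not analysed here, since no probe set carried their names.

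**Figure D5:**
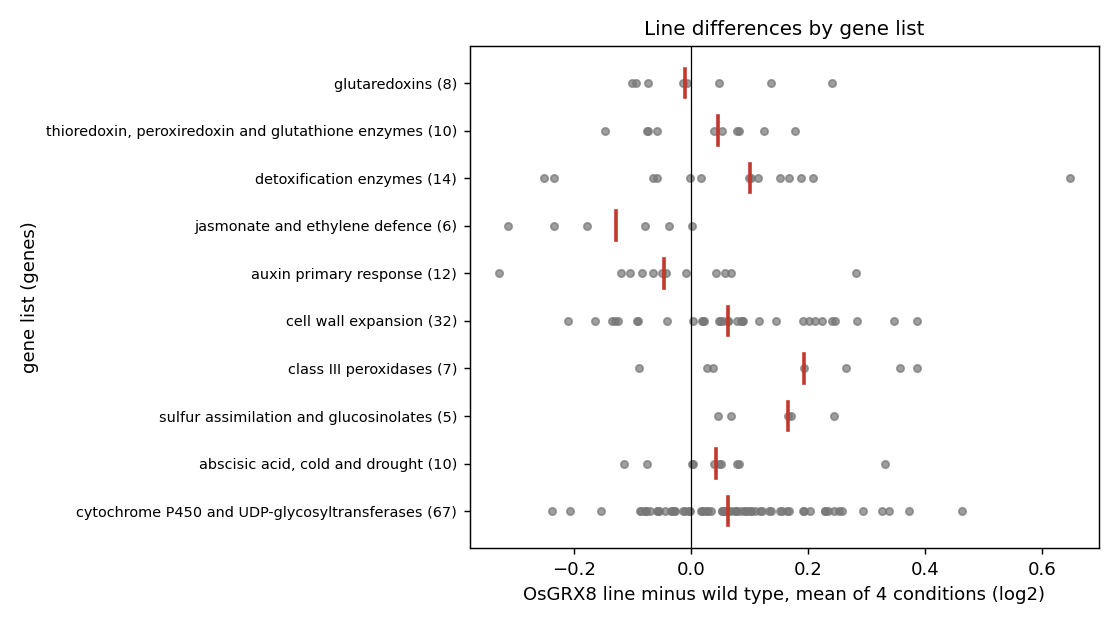
Difference between the OsGRX8 line and the wild type over 4 conditions (horizontal axis, log2) for each gene (grey points) of the lists with at least 5 measured genes, with the list's median (red bar) and number of genes in brackets. No gene shown passed the test, and GSTF4 in the detoxification list lies farthest right at 0.65.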

How the data were processed

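Log2 expression values of 22810 probe sets on 16 ATH1 arrays were used as deposited by the authors. RMA is named, without a version, per the submitters' processing notes. That the log base is 2 was checked on bacterial control transcripts added at 1.5, 5, 25 and 100 pM, whose slopes against log2 concentration were 0.779 to 0.996. After 64 control probe sets were removed, 22746 were tested. The platform annotation gave 13513 probe sets 1 gene, 503 several and 8730 none, and 13484 of the 13513 matched the RefSeq gene table (TAIR10.1). The 13347 nuclear probe sets stand for 13192 genes, of which 11731 carry a locus code only.

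Cell means of 8 groups were fitted with limma 3.58.1 in R 4.3.3 (lmFit, eBayes; 8 residual and 4.52 prior degrees of freedom). The contrast was the mean of 4 within-condition differences, and the interaction an F test with 3 degrees of freedom. Tests were two-sided, Benjamini-Hochberg adjusted over all 22746 probe sets, with a threshold of 0.05. The pipeline was tested on simulated data. The 2 arrays per group limit the precision.

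The naming rule took the largest called differences, which gave none. It also took glutaredoxins, up to 4 genes of each list by p, and the 6 smallest interaction p. The absence of overlap in every condition was an alternative rule for members, used here in place of the empty set. The 8 genes given in full, and others among the 31, were chosen after their values were seen, as were the treatment tests. Members, lists and rules were chosen with earlier results of these data known. Alternatives were 2 normalizations, a filter on dim probe sets, an intensity trend, array weights, a replicate block, removal of cross-hybridizing probe sets, a fold threshold, an additive model, and IAA arrays or single arrays left out.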

Additional observations from a re-analysis of the deposited data

Results flagged for a closer look

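In 18 of 101 named probe sets (17.8%) the arrays of the OsGRX8 line lay above those of the wild type in 1 condition and below them in another, with no overlap in either. Over all 22746 probe sets the number was 4891 (21.5%). The 101 include the 31 members, which their rule bars from this pattern, and genes named for a small interaction p, which favours it. The shares are therefore not compared. The interaction F test called none of the 18 (smallest unadjusted p 0.000142, adjusted p 1), and the difference between single pairs of conditions was not tested. Values are the OsGRX8 line minus the wild type on the log2 scale, for the conditions without overlap. Such single-condition differences are imprecise. For TAPX their SE was 0.18, against 0.09 for the mean of 4 conditions.

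Among redox and defence genes, AT2G20270 differed by -0.1 in water, -0.29 in NaCl and 0.15 in MV. ty2 differed by -0.19 in water, 0.21 in NaCl and -0.2 in MV. CCS differed by -0.14 in water and 0.57 in MV. TAPX differed by -0.26 in water, 0.14 in IAA and 0.3 in NaCl. LCR67 differed by 0.11 in water, -0.22 in IAA and -0.81 in MV. LCR66 differed by 0.12 in NaCl and -0.29 in MV, but its group means of 0.81 to 1.14 lie at the level of the absent bacterial control (0.82 to 0.99), so its differences carry no direction. SAG101 differed by -0.51 in IAA, 0.41 in NaCl and -0.57 in MV.

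Among auxin, pigment, nitrate and dehydration genes, GH3.3 differed by 0.27 in IAA and -1.11 in MV. UF3GT differed by 0.13 in water, -0.12 in IAA and 0.54 in NaCl. DFR differed by 0.06 in water and -0.19 in MV. NRT2.5 differed by -0.52 in IAA, 0.32 in NaCl and -0.36 in MV. LEA18 differed by -0.18 in water and 0.54 in NaCl. The lowest group means of NRT2.5 (0.83) and LEA18 (1.03) were also near that control, and those of DFR were 1.26 to 1.56.

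The remaining genes were named for the smallest interaction p. AT3G51280 differed by -0.43 in water, -0.77 in IAA and 0.52 in MV. AT5G58570 differed by -0.44 in NaCl and 1.33 in MV. AT5G23680 differed by -0.22 in water, -0.23 in IAA, 0.79 in NaCl and -0.46 in MV. AT1G68585 differed by -0.37 in water, -1.11 in IAA, -0.52 in NaCl and 0.39 in MV. AT1G08350 differed by -0.94 in NaCl and 0.9 in MV. AT5G13140 differed by -0.23 in NaCl and 0.81 in MV.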

How the results depend on the processing

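The count of probe sets past the test of the line difference stayed at 0 in the 11 settings that did not leave out a single array, with smallest adjusted p from 0.117 (replicate block) to 0.69 (array weights), and ran from 0 to 1 with 1 array left out. The interaction count was 0 in the same settings, the additive model aside, which has no interaction, and 0 to 3 with 1 array left out. Counts at an unadjusted p under 0.05 were 14 for the line difference and 112 for the interaction with a difference of at least 1 required, 845 and 385 among brighter probe sets, and 2087 and 1429 without replicate 2 of both IAA groups. Without the 4 IAA arrays the interaction had 1339. With 1 array left out they ran from 951 to 3252 and from 570 to 3524, highest without replicate 1 of the wild type in IAA. Nuclear probe sets with no overlap numbered 0 at a difference of at least 1, 96 without replicate 2 of both IAA groups, 160 without the 4 IAA arrays, and 44 to 67 with 1 array left out, since fewer arrays overlap less. Quantile normalization gave 36 and centring 21, of which 19 and 10 were among the 31. Leaving out replicate 1 of the wild type in IAA leaves only the array with weak 5′ actin signal in that group. Members past the treatment tests numbered 8 in NaCl and 2 in MV with a difference of at least 1, and 1 in IAA with the replicate block. With 1 array left out they were 0 to 6 in IAA, 11 to 16 in NaCl and 4 to 8 in MV.

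With the replicate number as a block the smallest adjusted p was 0.117 for the line difference and 0.0636 for the interaction, with 0 called in each. Replicate differences of the lines correlated at 0.066 in water, 0.363 in IAA, -0.096 in NaCl and 0.062 in MV. In IAA the arrays numbered 2 of both lines also shared the weak 5′ actin signal, so the number ties those arrays, while in the other 3 conditions the correlations were under 0.1 and the numbers were not taken to pair the samples.

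Of 70 named and tested genes, 23 changed sign in at least 1 alternative, none of them past the test. Of the 31 members 0 did. Where arrays are left out, this is fixed in advance by their rule of no overlap, so the counts are not compared. With 1 array left out the difference ran over 0 for ARR15 (-0.224 to 0.21), AT1G08350 (-0.142 to 0.021), AT1G77370 (-0.062 to 0.049), AT5G23680 (-0.068 to 0.004), AT5G48570 (-0.101 to 0.304), AtLEA4-1 (-0.183 to 0.033), BCAT4 (-0.04 to 0.176), COR47 (-0.013 to 0.178), DFR (-0.069 to 0.069), GI (-0.098 to 0.057), GRX480 (-0.24 to 0.092), GRXC2 (-0.024 to 0.12), LEA18 (-0.017 to 0.175), LHCB4.1 (-0.01 to 0.318), LHCB4.2 (-0.068 to 0.183), LHCB4.3 (-0.217 to 0.17), OLEO3 (-0.045 to 0.155), PSBW (-0.082 to 0.105), PYE (-0.106 to 0.116), PYK10 (-0.005 to 0.201), ROXY2 (-0.115 to 0.087), RR16 (-0.159 to 0.07) and TAPX (-0.056 to 0.073). The sign also turned after a repeated quantile normalization for TAPX (-0.013), ARR15 (0.013), PSBW (-0.013) and PYE (-0.021). The sign also turned after median centring for TAPX (-0.002) and PYE (-0.005). The sign also turned without replicate 2 of both IAA groups for ROXY2 (0.031), AT1G77370 (0.032), ARR15 (0.047), LHCB4.2 (-0.064), DFR (0.008), PYE (-0.075) and AT5G23680 (0.012). The sign also turned without the 4 IAA arrays for ROXY2 (0.113), AT1G77370 (0.041), TAPX (-0.036), RR16 (0.01), ARR15 (0.028), LHCB4.2 (-0.206), PSBW (-0.035), COR47 (-0.033) and AT5G23680 (0.033). The cause was not tested. Mean differences over the 4 conditions under about their interval's median half-width of 0.22 are not resolved. A difference within 1 condition rests on 2 arrays a group and is less precise.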

Other observations

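Outside the nuclear genes, all 69 chloroplast-encoded probe sets were lower in the OsGRX8 line on the mean of 4 conditions, with a median difference of -0.53 on the log2 scale. limma called 0 of them, with a smallest adjusted p of 0.57. At an unadjusted p under 0.05 there were 40 of the 69, against 1331 of all 22746 probe sets (5.85%). The median difference was -0.51 in water, -0.03 in IAA, -0.09 in NaCl and -1.52 in MV. Transcripts of 1 organelle are not independent. Of the 69, 26 had 1 sign in every condition, against 3338 of all 22746 probe sets (14.7%).

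The chloroplast gene ndhF, which encodes a subunit of the NDH complex, showed no overlap in any condition and averaged 1.73 in the OsGRX8 line and 2.44 in the wild type. No overlap was also seen in 21 unnamed probe sets, 15 higher and 6 lower in the OsGRX8 line, and in 1 shared by several genes, which was lower. The unnamed one with the largest difference averaged 6.42 in the OsGRX8 line and 5.57 in the wild type, with a difference of 0.85 ± 0.15 (SE).

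Of the 10 largest nuclear differences, singled out after their values were seen, 8 were higher and 2 lower in the OsGRX8 line, and OSM34 was the 1 among the 31 genes. The lower ones were AT3G02480, which averaged 5.57 in the OsGRX8 line and 6.39 in the wild type (limma adjusted p = 0.912), and AT4G36700, which averaged 4.09 in the OsGRX8 line and 4.89 in the wild type (limma adjusted p = 0.895). Both differed in the other direction in water, by 0.15 and 0.13. AT1G52070, which encodes a jacalin-related lectin, averaged 5.09 in the OsGRX8 line and 4.14 in the wild type (limma adjusted p = 0.696). The neighbouring lectin gene AT1G52060 averaged 4.62 in the OsGRX8 line and 3.87 in the wild type (limma adjusted p = 0.723). AT5G17820, a class III peroxidase gene, averaged 3.49 in the OsGRX8 line and 2.71 in the wild type (limma adjusted p = 0.57), with 1.91 in MV and -0.06 in NaCl.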
